A study of Mus musculus with 20 samples.

Results

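The wax and lipid synthesis genes of the sebaceous gland were followed through 4 groups of mouse skin. They were named as 10 genes: Far2, Awat1, Awat2, Elovl3, Scd1, Scd3, Dgat2, Soat1, Cidea and Mc5r. A gene was taken where a probe set of the array carried its symbol alone, which held for 9 of the 10, among 22180 genes in all. Soat1, which makes cholesteryl esters, had no probe set with its symbol alone and was not analysed here. Each of the 9 genes was read by 1 probe set.

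Sebocytes fill with lipid and burst, and the sebum they release coats hair and skin. In mouse sebum, wax esters are made by joining a long-chain fatty alcohol to a fatty acid, so the pathway needs a reductase that makes the alcohol, acyltransferases that join both parts, elongases and desaturases that shape the chains, and droplet proteins that hold the product. Several of these genes, among them Scd1, Dgat2 and Cidea, are also used by fat cells, which lie under the dermis in the same pieces of skin.

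Abdominal skin of 20 mice was hybridised to Affymetrix arrays, with 5 separate animals in each of 4 groups. The knockouts were zfp36 fl/fl mice with K14 cre, and the controls were zfp36 fl/fl littermates without it, so that all animals carried the floxed gene. The keratin 14 promoter acts in basal keratinocytes and in the cells descended from them, sebocytes included, while other skin cells keep Zfp36. Zfp36 encodes tristetraprolin, which binds AU-rich messenger RNAs and promotes their decay. Mice of each genotype received mock treatment or topical imiquimod, an agonist of a Toll-like receptor that causes psoriasis-like inflammation, on 5 days in a row, and skin was taken 4 hours after the last dose. The sources used here name neither the mock preparation nor the age of the mice.

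Values are on a scale read as log2, with array medians between 4.94 and 5.04. Zfp36 was lower in every knockout array than in every control array of the same treatment, at 3.47 to 7.12 against 7.22 to 7.74 after mock and 5.47 to 7.41 against 7.68 to 8.40 after imiquimod (exact two-sided permutation p = 0.00794 in both, the smallest that 5 against 5 can give). In limma over all genes, the Zfp36 differences of -2.03 after mock and -1.60 after imiquimod did not pass (limma adjusted p = 0.999 and 0.221). Zfp36 varied more between knockout arrays (SD 1.54 and 0.85) than between control arrays (SD 0.22 and 0.26). Hair shaft and follicle genes set some arrays apart within their groups. The mean log2 value of that list was 5.96 in control mock replicate 5 and 5.90 in knockout mock replicate 3, where the mock medians were 9.92 and 9.56, and it was 9.16 in control imiquimod replicate 5 and 8.97 in knockout imiquimod replicate 1, where the imiquimod medians were 5.94 and 5.83. Results are therefore also given without these 4 arrays. Between treatments 0 of 23 hair genes passed limma in either genotype, where 2404 of all 22180 genes passed in controls and 4605 in knockouts. At an unadjusted p under 0.05 there were 22 hair genes in controls and 8 in knockouts, and 5300 and 6925 of all genes. The median log2 differences of the hair genes were -2.94 and -2.03. Keratinocyte genes were bright in all arrays (list means of 9.38 to 10.21), and Krt79, a keratin of sebaceous duct and infundibulum, had group means of 10.52 to 11.41. Muc1, another sebocyte marker, stayed between 3.73 and 4.42, near the low end of the scale, and sebocyte markers other than the members were therefore not uniformly bright. In such bulk skin, fewer sebocytes and less RNA per sebocyte cannot be told apart.

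The stretches before and around the start sites are shown for genes whose levels moved most and for which a sequence was at hand: Awat1 and its chromosome neighbour Dgat2l6, a further acyltransferase of the same family that rose with it, Far2, which also rose, and Scd3, which fell. They are RefSeq windows of 250 bases before and 50 bases after the start, on build GRCm38.p6, printed 5′ to 3′ on the gene's strand, and 5 of the 10 named genes had one. Capitals mark letters that match a searched motif.
Awat1 (chrX:100571997-100572296, plus strand): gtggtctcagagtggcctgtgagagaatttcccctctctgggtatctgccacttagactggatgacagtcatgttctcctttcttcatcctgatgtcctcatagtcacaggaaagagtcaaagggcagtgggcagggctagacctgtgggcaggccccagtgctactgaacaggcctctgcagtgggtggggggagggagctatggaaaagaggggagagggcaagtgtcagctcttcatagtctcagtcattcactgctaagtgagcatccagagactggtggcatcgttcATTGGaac
Dgat2l6 (chrX:100524588-100524887, plus strand): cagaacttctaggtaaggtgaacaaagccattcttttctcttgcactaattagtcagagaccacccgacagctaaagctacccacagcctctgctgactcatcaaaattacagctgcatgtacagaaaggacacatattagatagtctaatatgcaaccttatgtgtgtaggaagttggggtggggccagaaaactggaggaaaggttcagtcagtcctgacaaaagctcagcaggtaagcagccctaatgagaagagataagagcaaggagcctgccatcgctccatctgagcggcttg
Far2 (chr6:148047166-148047465, plus strand): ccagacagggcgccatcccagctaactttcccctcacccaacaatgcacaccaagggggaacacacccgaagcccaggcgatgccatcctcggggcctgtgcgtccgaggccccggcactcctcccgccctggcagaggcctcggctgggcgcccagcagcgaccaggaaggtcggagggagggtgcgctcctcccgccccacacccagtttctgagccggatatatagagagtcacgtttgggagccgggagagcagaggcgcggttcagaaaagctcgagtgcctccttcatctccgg
Scd3 (chr19:44203038-44203337, plus strand): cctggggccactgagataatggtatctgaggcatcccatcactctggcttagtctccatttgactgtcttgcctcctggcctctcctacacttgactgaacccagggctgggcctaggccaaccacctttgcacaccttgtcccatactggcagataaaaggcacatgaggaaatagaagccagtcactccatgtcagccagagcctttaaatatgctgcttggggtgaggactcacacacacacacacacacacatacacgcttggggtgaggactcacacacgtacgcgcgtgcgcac
Searched on both strands were the direct repeat of PPAR response elements, AGGTCA and AGGTCA with 1 base of any kind between them, found in 0.0396% of all 32851 windows, a looser form with the repeats AGGNCA, which contains it, found in 0.381%, the sterol response element TCACNCCAC in 1.24%, the CCAAT box CCAAT in 37.4%, the E-box CACGTG in 7.15% and TATAAA in 13.6%. Of these 4 windows, that of Awat1 held 1 match, a CCAAT box on the reverse strand at position 43 after the start, and the other windows held none of these letters. A match is a description of the sequence and was tested against nothing.

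**Figure D1:**
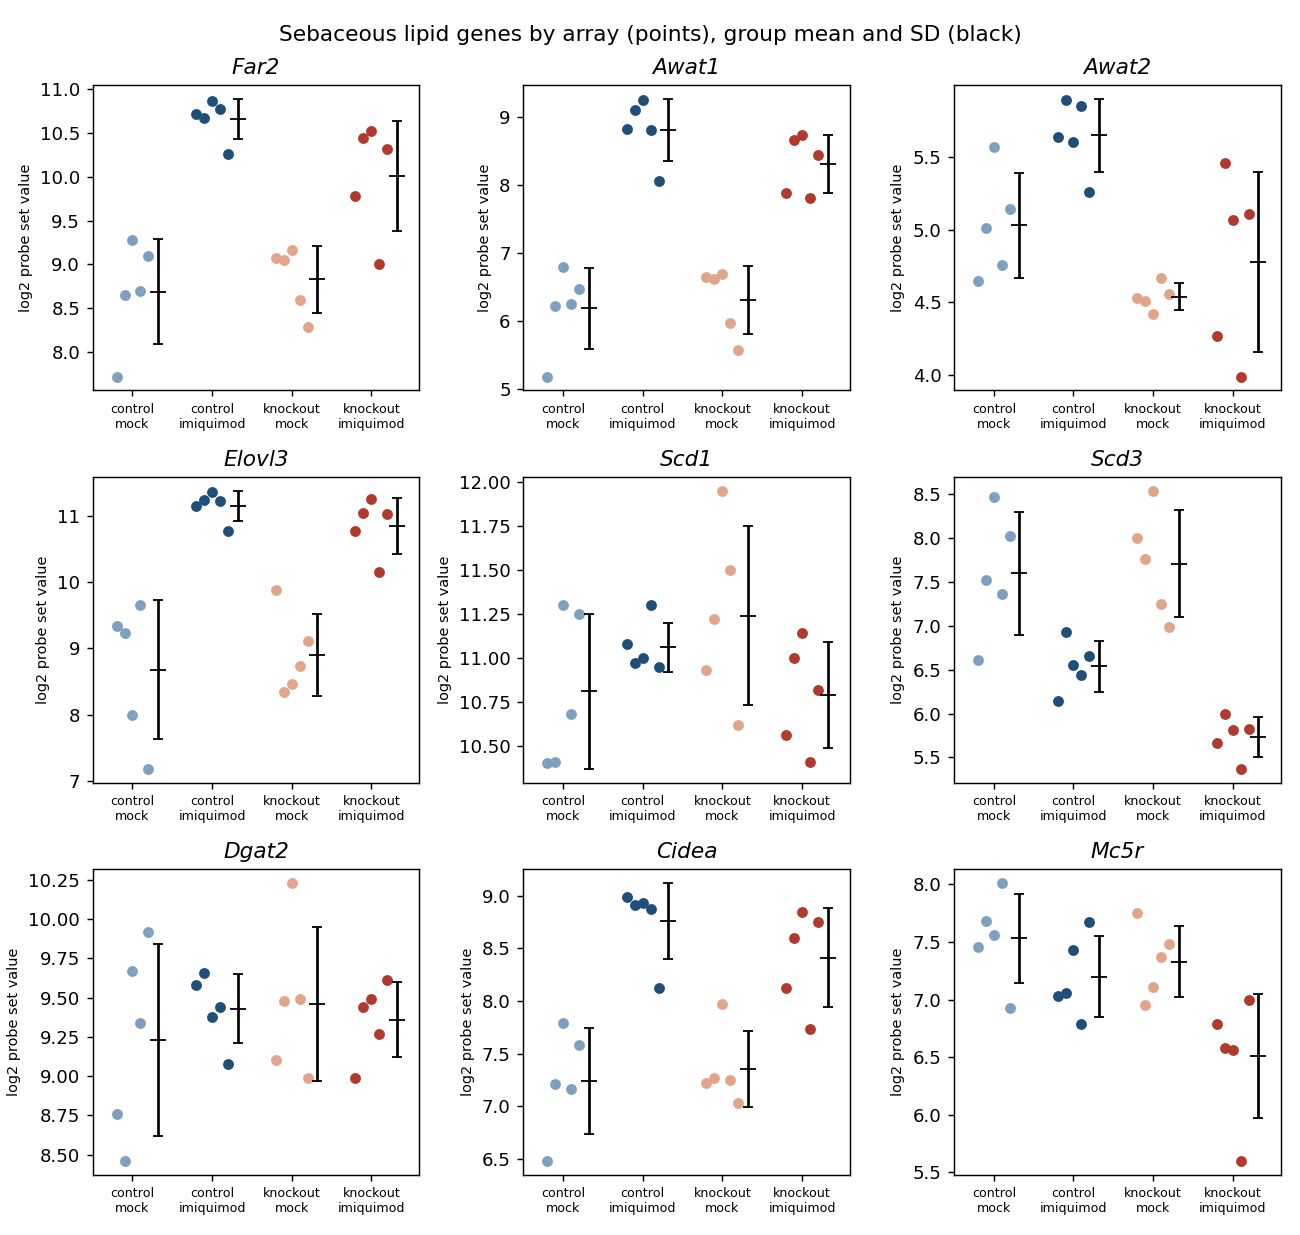
Log2 probe set values of the 9 measured genes in the 4 groups, 1 point per array, with the group mean and SD in black (n = 5 each); each panel has its own axis. Awat1 and Elovl3 stand apart between mock and imiquimod in both genotypes, Scd3 runs the other way, and Scd1 and Dgat2 overlap throughout.

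The first comparison asked how imiquimod changed these genes in control skin. Genes for making and storing wax rose: the reductase Far2, the acyltransferase Awat1, the elongase Elovl3 and the droplet protein Cidea were 2.87 to 6.14 times as high. The desaturase Scd3 fell to 0.482 of its mock level, while Awat2, Scd1, Dgat2 and Mc5r did not pass the test. In total 4 of 9 rose and 1 fell (limma, adjusted p under 0.05 over 22180 genes), where 6.47% of all genes rose and 4.37% fell. The median log2 difference of the 9 was 0.62, against 0.00 over all genes.

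Far2 encodes a fatty acyl-CoA reductase that supplies the alcohol part of a wax ester. Its log2 values in replicates 1 to 5 were 7.72, 8.65, 9.28, 8.70 and 9.10 in mock-treated controls and 10.72, 10.67, 10.87, 10.77 and 10.26 after imiquimod. Every treated array lay above every mock array, and the treated arrays spread less (SD 0.23 against 0.60). The log2 difference was 1.97 ± 0.28 (SE, n = 5 per group, limma adjusted p = 6.91e-05), a 3.91-fold rise.

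Awat1 encodes an acyltransferase that esterifies fatty alcohols to wax. It read 5.18, 6.22, 6.79, 6.25 and 6.46 in mock-treated controls and 8.81, 9.09, 9.24, 8.80 and 8.05 with imiquimod. The groups did not overlap, and the lowest treated array was replicate 5, the array with high hair genes. The rise was 6.14-fold (log2 difference 2.62 ± 0.29, SE, n = 5 per group, limma adjusted p = 2.92e-06).

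Awat2, another wax synthase that also esterifies retinol, was dimmer, with a mean of 5.00 over the 20 arrays. It read 4.65, 5.01, 5.57, 4.76 and 5.14 in mock-treated controls and 5.64, 5.89, 5.60, 5.85 and 5.26 with imiquimod, and the groups overlapped. Its log2 difference of 0.62 did not pass (95% interval 0.16 to 1.08, limma adjusted p = 0.0805). Without control mock replicate 3, control imiquimod replicate 5 or knockout imiquimod replicate 4 it passed (limma adjusted p = 0.0387, 0.0451 and 0.0385), and it also passed without the 4 arrays that stood apart in hair genes (0.75, limma adjusted p = 0.0407). In the fit that holds the hair list it was 0.34 (limma adjusted p = 0.446).

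Elovl3 encodes an elongase of saturated and monounsaturated very long fatty acids that is prominent in sebaceous glands and brown fat. Its mock values in controls were 9.34, 9.24, 8.0, 9.66 and 7.18, a wide range with the lowest value in replicate 5, and its imiquimod values were 11.15, 11.24, 11.36, 11.23 and 10.77. The treated arrays lay together above all mock arrays. The rise was 5.53-fold (log2 difference 2.47 ± 0.37, SE, n = 5 per group, limma adjusted p = 0.000136).

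Scd1 and Scd3 belong to the stearoyl-CoA desaturase family, whose members introduce the double bond of monounsaturated fatty acids such as oleate or palmitoleate. Scd3 is known mainly from the sebaceous gland, while Scd1 is widespread, the sebaceous gland included. Scd3 read 6.61, 7.52, 8.47, 7.36 and 8.03 in mock-treated controls and 6.14, 6.93, 6.55, 6.44 and 6.66 after imiquimod. The treated values were lower but overlapped the mock array of replicate 1. Scd3 fell by 1.05 ± 0.29 as a log2 difference (SE, 5 arrays a group, limma adjusted p = 0.0215). That call was lost without control mock replicate 3 (limma adjusted p = 0.068) or control imiquimod replicate 1 (limma adjusted p = 0.063). Scd1 was the brightest of the 9 genes, and its difference of 0.25 did not pass (95% interval -0.20 to 0.71, limma adjusted p = 0.562).

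Dgat2 encodes the acyltransferase of the last step of triglyceride synthesis, and Cidea a protein that enlarges lipid droplets. Dgat2 read 8.76, 8.46, 9.67, 9.34 and 9.92 in mock-treated controls and 9.58, 9.66, 9.38, 9.44 and 9.08 with imiquimod, so that the treated values lay inside the mock range (log2 difference 0.20, 95% interval -0.31 to 0.71, limma adjusted p = 0.718). Cidea rose from 6.48, 7.21, 7.79, 7.16 and 7.58 to 8.99, 8.91, 8.93, 8.87 and 8.12 without overlap. Its rise was 2.87-fold (log2 difference 1.52 ± 0.25, SE, n = 5 per group, limma adjusted p = 0.000292). Mc5r encodes the melanocortin receptor through which sebum production is stimulated, and it read 7.46, 7.68, 7.56, 8.01 and 6.93 with mock and 7.03, 7.06, 7.43, 6.79 and 7.67 with imiquimod (log2 difference -0.33, 95% interval -0.82 to 0.16, limma adjusted p = 0.448). The arrays of 4 of the 9 genes did not overlap between treatments, against 8.35% of all genes.

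Markers of other cell types moved beside these genes. The mean of 15 measured adipocyte markers was 7.03 to 7.84 in mock-treated controls and 6.88 to 7.56 with imiquimod, and 1 of the 15, the fatty acid binding protein Fabp4, fell by 0.85 (limma adjusted p = 0.00919). Adipoq, the defining hormone of fat cells, had a group mean of 7.58 and 7.13, and Ucp1, which defines brown fat, 4.46 and 4.88. The higher Ucp1 mean came from replicate 1 of the treated controls, at 6.29, and the Ucp1 median was 4.53 in both groups. With the adipocyte list as a covariate, the 5 calls in controls remained and Awat2, Scd1 and Dgat2 passed as well, at 0.71, 0.46 and 0.46 (limma adjusted p = 0.0324, 0.0309 and 0.0115). When the mean of the hair list was the covariate instead, the same 5 genes passed in controls, with Awat1 at 2.08, Far2 at 1.49, Elovl3 at 2.88, Cidea at 1.0 and Scd3 at -1.45, while Scd1 and Dgat2 turned to -0.16 and -0.35 and did not pass. Without the 4 arrays that stood apart in hair genes, these 5 genes read 2.88, 2.17, 2.19, 1.76 and -0.98 in the same order. Both lists were themselves measured in the same skin and shifted with treatment, and the adipocyte list includes Cidec, which is also on the list of sebocyte markers. Leukocyte markers moved too: 3 of 9 rose in controls and 4 of 9 in knockouts, where 2 fell, with list means of 5.43 to 6.10 and 6.0 to 6.86 in mock-treated and treated controls and 5.65 to 6.11 and 6.96 to 7.65 in knockouts. Of 7 fibroblast markers 4 fell in controls and 3 in knockouts, with medians of -0.62 and -0.55. Of 10 keratinocyte markers 4 rose and 1 fell in each genotype: Krt1, a keratin of differentiating cells, rose by 2.63 in controls and 1.93 in knockouts, and Krt15, a keratin of basal and bulge cells, was the one that fell, by 1.16 and 2.25. Over all genes 6.47% rose and 4.37% fell in controls, and 11.1% rose and 9.71% fell in knockouts. The part of leukocytes, fibroblasts and keratinocytes in the members' results was not tested.

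**Figure D2:**
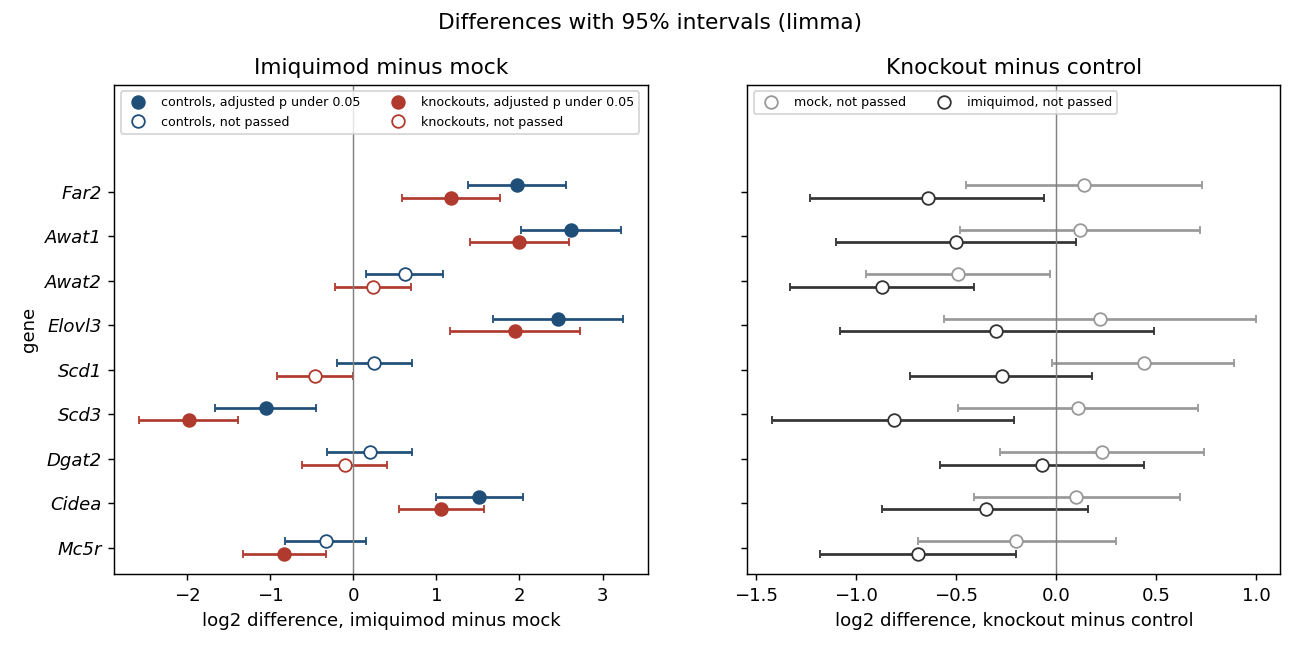
Log2 differences with 95% intervals from limma, imiquimod minus mock (left, controls blue and knockouts red) and knockout minus control (right, mock grey and imiquimod black); filled points passed an adjusted p under 0.05. On the left Awat1, Elovl3, Far2 and Cidea lie right of 0 and Scd3 left of 0 in both genotypes, and on the right no gene passed.

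In knockout skin imiquimod raised the same 4 wax and droplet genes, by 2.09 to 4.00-fold, and lowered Scd3 and Mc5r. Thus 4 of 9 rose and 2 fell (limma, adjusted p under 0.05), where 11.1% of all genes rose and 9.71% fell. The median log2 difference of the 9 was 0.24, against 0.00 over all genes, since 4 of the 9 differences lay below 0. The arrays of 3 of the 9 genes did not overlap between treatments, against 13.7% of all genes.

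Awat1 read 6.64, 6.62, 6.69, 5.97 and 5.57 in mock-treated knockouts and 7.87, 8.65, 8.73, 7.81 and 8.43 after imiquimod. Its groups did not overlap, and it rose by 2.0 ± 0.29 (SE, n = 5 per group, limma adjusted p = 4.68e-05). Elovl3 rose from 9.88, 8.34, 8.46, 8.73 and 9.11 to 10.78, 11.05, 11.26, 10.15 and 11.03, again without overlap (log2 difference 1.95, limma adjusted p = 0.000818).

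Far2 read 9.07, 9.05, 9.17, 8.59 and 8.28 with mock and 9.78, 10.44, 10.52, 9.01 and 10.32 with imiquimod. Replicate 4 of the treated knockouts lay inside the mock range, and the difference was 1.18 ± 0.28 (SE, n = 5 per group, limma adjusted p = 0.00473). Cidea read 7.22, 7.27, 7.97, 7.25 and 7.03 with mock and 8.12, 8.60, 8.85, 7.73 and 8.75 with imiquimod. Here too replicate 4 of the treated arrays was the lowest, below mock replicate 3, and the rise was 1.06 ± 0.25 (SE, n = 5 per group, limma adjusted p = 0.004).

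Scd3 fell in knockouts from 8.0, 7.76, 8.54, 7.25 and 6.99 to 5.66, 5.99, 5.81, 5.37 and 5.82, with no overlap. It dropped to 0.254 of the mock level (log2 difference -1.98 ± 0.29, SE, n = 5 per group, limma adjusted p = 5.19e-05). Mc5r read 7.75, 6.95, 7.11, 7.37 and 7.48 with mock and 6.79, 6.58, 6.56, 5.60 and 7.0 with imiquimod, a fall of 0.83 (limma adjusted p = 0.0156) that was not called with the hair list as a covariate (-0.61, limma adjusted p = 0.0629). Scd1 read 10.93, 11.22, 11.95, 11.50 and 10.62 against 10.56, 11, 11.14, 10.41 and 10.82 and did not pass (log2 difference -0.46, limma adjusted p = 0.159). It passed with the hair list as a covariate (-0.76, limma adjusted p = 0.00327) and without knockout mock replicate 5 (-0.61, limma adjusted p = 0.0498), and turned to 0.15 with the adipocyte list as a covariate (limma adjusted p = 0.653).

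Awat2 had mock values of 4.53, 4.51, 4.42, 4.67 and 4.56 in knockouts, the narrowest group of the 9 genes (SD 0.09). Its imiquimod values were 4.27, 5.46, 5.07, 3.99 and 5.11, with replicates 1 and 4 below all mock arrays and the others above them (log2 difference 0.24, limma adjusted p = 0.525). Those are the arrays of this group with the highest means of the hair list, 8.97 and 7.31. Dgat2 stayed at 8.99 to 10.23 with mock and 8.99 to 9.61 with imiquimod (log2 difference -0.10, limma adjusted p = 0.851). Its direction depended on the covariate: 0.67 with the adipocyte list (limma adjusted p = 0.00337) and -0.50 with the hair list (limma adjusted p = 0.0309). Adipocyte markers fell in knockout skin, 8 of 15 past the threshold, and their mean was 7.0 to 8.28 with mock and 6.53 to 6.97 with imiquimod. With the adipocyte list as a covariate, the knockout rise of Elovl3 was 1.28 and that of Cidea 1.69 (limma adjusted p = 0.0387 and 2.31e-05), and with the hair list that of Cidea was 0.68 (limma adjusted p = 0.00899). The part of fat and hair content in these results was not tested beyond the covariate fits.

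Between the genotypes no member passed in either treatment. After mock treatment 0 of 9 passed limma, where 0.00902% of all genes passed. At an unadjusted p under 0.05 there was 1 of the 9, Awat2 at -0.49, and 708 of all 22180 genes. After imiquimod 0 of 9 passed limma, where 0.546% of all genes did. At an unadjusted p under 0.05 there were 4 of the 9, Awat2, Scd3, Far2 and Mc5r, and 2218 of all 22180 genes. All 9 means were lower in treated knockouts than in treated controls, with a median of -0.50, while 47.9% of all genes had a difference below 0. These 9 values come from the same 10 arrays and most of the genes varied together, so they are not 9 separate observations. In the same comparison the adipocyte list had a median of -0.41, and S100a8 and S100a9, made by neutrophils and by inflamed keratinocytes, were higher in knockouts by 2.04 and 1.93 (limma adjusted p = 0.0452 and 0.0275). With the adipocyte list as a covariate the differences of Scd1 and Dgat2 turned to 0.06 and 0.36, and that of Cidea was 0.00.

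Awat2 had the smallest p of these, with a mean of 5.65 ± 0.25 in treated controls and 4.78 ± 0.62 in treated knockouts (SD, n = 5 each; log2 difference -0.87, 95% interval -1.33 to -0.41, limma adjusted p = 0.0938). It passed without knockout imiquimod replicate 2 (-1.04, limma adjusted p = 0.0478) and in the fit that holds the hair list (-0.84, limma adjusted p = 0.0304). Scd3 was the 1 gene whose treated arrays did not overlap between genotypes, at 5.37 to 5.99 in knockouts and 6.14 to 6.93 in controls (log2 difference -0.81, limma adjusted p = 0.294), where 2.47% of all genes did not overlap. For Awat1 the 95% interval of the genotype difference under imiquimod ran from -1.10 to 0.10, and for Elovl3 from -1.08 to 0.49, so differences of either sign within these bounds are not excluded.

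The difference between the imiquimod responses of the genotypes passed for 0 of 9 genes in limma, where 0.018% of all genes passed. At an unadjusted p under 0.05 there were 2 of the 9, Scd1 and Scd3, and 1497 of all 22180 genes. Scd3 responded with -1.98 in knockouts and -1.05 in controls (difference -0.92, 95% interval -1.78 to -0.07, limma adjusted p = 0.723). Scd1 responded with -0.46 and 0.25 (difference -0.71, limma adjusted p = 0.723), and Far2 with 1.18 and 1.97 (difference -0.79, limma adjusted p = 0.744). All 9 differences lay below 0, with a median of -0.52, against 49% of all genes; they use the treated knockout arrays of the comparison above and add no separate evidence.

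The variation between animals of a group showed which genes went together. After removing group means, Awat1 and Far2 were related most closely (Pearson r = 0.91, adjusted permutation p = 0.00018; Spearman rho = 0.88, adjusted permutation p = 0.00036; 20 arrays; r = 0.93 without the 2 most distant arrays). Far2 and Cidea followed (r = 0.90, adjusted permutation p = 0.00018; rho = 0.87, adjusted permutation p = 0.00036; r = 0.84 without the 2 most distant arrays). Among 7 genes, all but Elovl3 and Mc5r, Pearson's r ran from 0.39 to 0.91 over the 21 pairs. Of these pairs 19 passed by Pearson's r and 16 by Spearman's rho. Of the 14 pairs that joined Elovl3 or Mc5r to those genes, 0 passed by either permutation test. These relations pool the 4 groups, and for Elovl3 the groups differed. In treated controls replicate 5 was lowest in Elovl3 (10.77), Awat1 (8.05) and Far2 (10.26). In treated knockouts replicate 4 was lowest in these genes (10.15, 7.81 and 9.01). In the mock groups the array lowest in Elovl3 (7.18 in controls, 8.34 in knockouts) was not the lowest in Awat1 or Far2. A pooled relation that did not pass therefore does not describe each group. Elovl3 and Mc5r were related to each other (r = 0.63, adjusted permutation p = 0.00777; rho = 0.60, adjusted permutation p = 0.0259; r = 0.43 without the 2 most distant arrays). That relation was not shared by all groups. In treated controls replicate 5 was lowest in Elovl3 (10.77) and highest in Mc5r (7.67). In each other group the array lowest in Elovl3 was also the lowest in Mc5r. The p-values were adjusted over 36 pairs, and the split into 7 and 2 genes was made after seeing them. Scd3, which fell with imiquimod, still rose and fell with Awat1 between animals of a group (r = 0.77, adjusted permutation p = 0.00329; rho = 0.71, adjusted permutation p = 0.00676; r = 0.64 without the 2 most distant arrays).

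**Figure D3:**
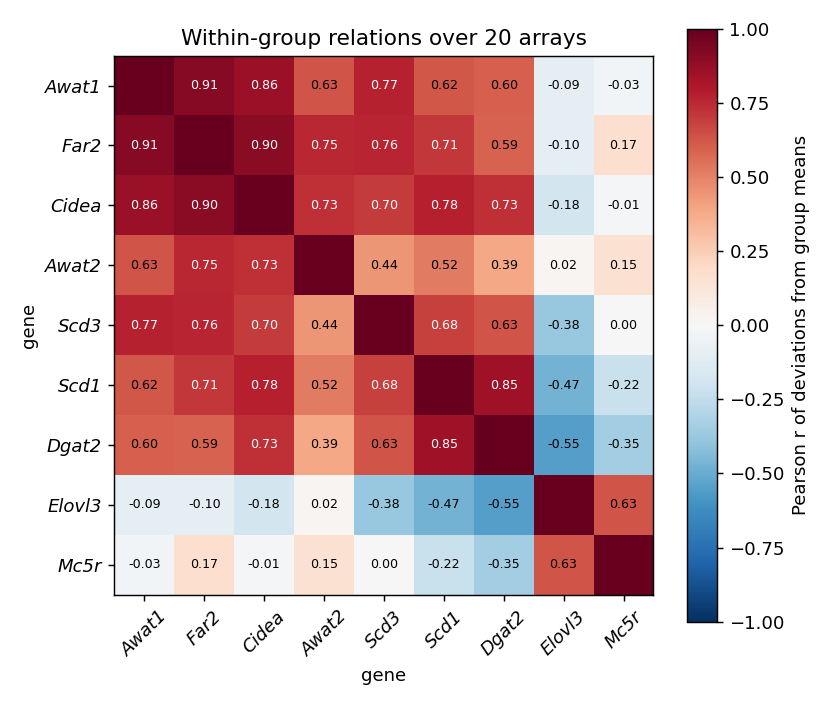
Pearson r between genes, of deviations from the group means over 20 arrays; red is positive, blue negative. Far2, Awat1 and Cidea form the darkest block at 0.86 to 0.91, and Elovl3 and Mc5r share a positive value with each other at 0.63.

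The mean of the adipocyte markers, also taken as a deviation from group means, went with Dgat2 (r = 0.90, adjusted permutation p = 9.00e-05; rho = 0.94, adjusted permutation p = 9.00e-05; 20 arrays; r = 0.84 without the 2 arrays most distant in that mean). It also went with Scd1 (r = 0.80, adjusted permutation p = 0.00162; rho = 0.83, adjusted permutation p = 0.00042; r = 0.68 without those arrays) and with Cidea (r = 0.73, adjusted permutation p = 0.00054; rho = 0.79, adjusted permutation p = 0.000315; r = 0.66 without those arrays). For Awat1 the relation did not pass (r = 0.47, adjusted permutation p = 0.0809; rho = 0.48, adjusted permutation p = 0.07; r = 0.43 without those arrays), nor for Elovl3, whose sign was negative (r = -0.51, adjusted permutation p = 0.0809; rho = -0.51, adjusted permutation p = 0.07; r = -0.33 without those arrays). Adjustment was over the 9 genes. Because the adipocyte list includes Cidec, which is also on the list of sebocyte markers, its mean is not a measure of fat cells alone.

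**Figure D4:**
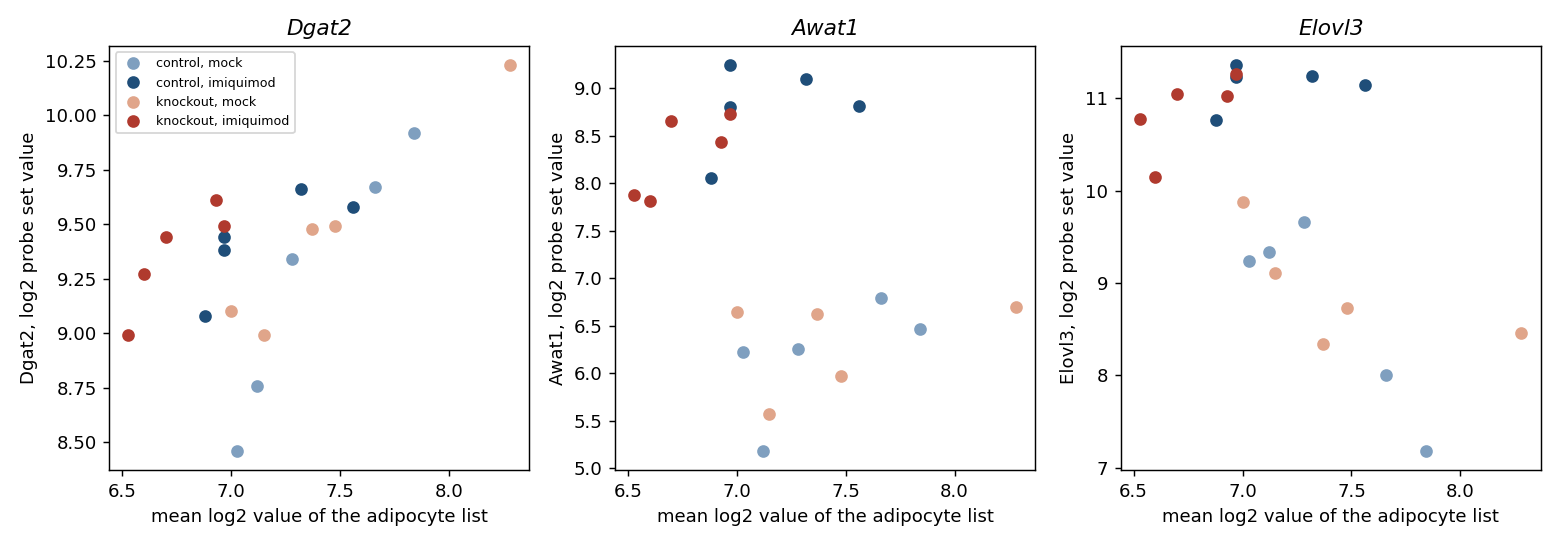
Log2 values of Dgat2, Awat1 and Elovl3 against the mean log2 value of the adipocyte list in the same array, coloured by group. Dgat2 climbs with the adipocyte mean within groups, Awat1 separates by treatment over the adipocyte means that both treatments share, and Elovl3 is lowest in the mock array of control replicate 5.

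Genes outside the set with the most similar deviations were ranked by Pearson r over the 20 arrays, as a description without a p. Awat1 was most like Ggt6 (r = 0.95, rho = 0.86), Aadacl4 (r = 0.91, rho = 0.85) and Sgpp2 (r = 0.91, rho = 0.91), and Far2 was most like Fa2h (r = 0.94, rho = 0.93), which hydroxylates fatty acids, Sdr16c6 (r = 0.93, rho = 0.92) and Hacd2 (r = 0.91, rho = 0.93), an enzyme of the elongation cycle. Elovl3 was most like Aox4 (r = 0.91, rho = 0.90), an aldehyde oxidase, Hsd17b2 (r = 0.90, rho = 0.93) and Ammecr1 (r = 0.89, rho = 0.80). Scd1 was most like Thrsp (r = 0.93, rho = 0.93), Pcx (r = 0.93, rho = 0.95) and Retn (r = 0.92, rho = 0.91), of which Thrsp promotes lipogenesis and Retn is a hormone of mouse fat. Dgat2 was most like Zeb1, Bmyc and Cat (r = 0.94 each), Cidea was most like Fitm2 (r = 0.93), which helps form lipid droplets, Acacb (r = 0.92) and Secisbp2l (r = 0.90), and Mc5r was most like Hoxb6 (r = 0.86), Zfp382 and Tfap2b (r = 0.83 each). Scd3 was most like Traf5 (r = 0.90), Adgrd1 (r = 0.86) and Gng12 (r = 0.84), and Awat2 like A4gnt (r = 0.86), 9930012K11Rik and Stard5 (r = 0.83 each). Several of the genes like Awat1, Far2 and Elovl3 also rose with imiquimod in control mice: Aox4 by 4.31, Sgpp2 by 2.67, Aadacl4 by 2.40 and Fa2h by 1.95 (limma adjusted p = 2.48e-07, 1.25e-07, 8.95e-05 and 0.00016). All 3 genes like Awat2 and all 3 like Cidea also rose there, by 0.54 to 0.91 and by 0.49 to 1.17. None of the 3 genes like Scd1, Scd3, Dgat2 or Mc5r passed there. In knockouts Aox4, Sgpp2 and Aadacl4 passed at 3.69, 2.06 and 1.36, while Fa2h at 0.84 did not (limma adjusted p = 0.0537).

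Position was not part of the choice of genes. In the RefSeq table of assembly GRCm38.p6, protein-coding genes on chromosome X are ordered Eda, Awat2, Otud6a, Igbp1, Dgat2l6, Awat1 and P2ry4. With imiquimod in controls, Dgat2l6 rose by 2.33 ± 0.26 (SE, n = 5 per group, limma adjusted p = 3.57e-06) beside Awat1 at 2.62, while Awat2 at 0.62, P2ry4 at 0.71, Igbp1 at 0.13, Otud6a at -0.06 and Eda at -0.28 did not pass. In knockouts Dgat2l6 rose by 1.74 (limma adjusted p = 7.16e-05) and of these genes Awat1 was the other that passed. The desaturase genes on chromosome 19 are ordered Scd3, Scd2, Scd4 and Scd1, and Scd2 had no probe set with its symbol alone. Scd4, the form known from heart, was dim, with a mean of 4.87 in mock-treated controls, and did not pass in controls (0.41, limma adjusted p = 0.0568) or knockouts (-0.22, limma adjusted p = 0.301), so that of the 3 measured neighbours Scd3 alone passed. These desaturases are relatives of each other, as are Awat1, Awat2 and Dgat2l6, so part of a probe set's signal may come from a relative. Their sequences were not compared, and such shared signal was not tested.

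Around the members, the other steps of lipid synthesis were read from lists of genes. Over all genes 6.47% rose and 4.37% fell in controls, and 11.1% rose and 9.71% fell in knockouts. Sterol synthesis moved most evenly: 12 of 13 measured genes rose in control mice and 12 of 13 in knockouts, with medians of 1.05 and 1.06. They include Cyp51, a demethylase of lanosterol (1.63, limma adjusted p = 8.98e-09 in controls), Hsd17b7 (1.61, limma adjusted p = 1.03e-08) and Sqle, the squalene epoxidase (1.26, limma adjusted p = 1.14e-06).

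Elongation and desaturation genes other than the members had 10 of 16 higher and 2 lower in controls, and 6 higher and 2 lower in knockouts. The ceramide desaturase Degs2 rose by 1.69 and 1.67 and the elongase Elovl7 by 1.61 and 1.41 in controls and knockouts. Fads3 and Fads1, desaturases of the fatty acid desaturase family, fell by 1.81 and 0.59 in controls. Wax and glycerolipid genes had 6 of 15 higher in each genotype, among them Far1, the sister reductase of Far2, at 1.19 and 0.90, and Dgat1, at 1.21 and 0.85. Unlike Dgat2, Dgat1 passed in both genotypes (limma adjusted p = 0.000419 and 0.00513); the difference between both genes was not tested.

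Genes for fatty acid supply had 6 of 15 higher in controls, among them Fabp5, the epidermal fatty acid binding protein, at 1.79, and the transporter Slc27a4 at 1.20. In knockouts Fabp5 and Slc27a4 were the 2 of 15 that rose, at 2.38 and 0.94, a share near the 11.1% of all genes that rose. Fasn, the fatty acid synthase, was in this list and did not pass in either genotype. Droplet and lipolysis genes had 5 of 16 higher in controls, led by Pnpla5 at 2.18 and Mgll, a monoglyceride lipase, at 1.48; in knockouts 3 rose and 3 fell, the latter being Plin1, Plin4 and Lipe, which are also on the adipocyte list.

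Of the regulators known from sebocytes, 5 of 21 rose and 1 fell in controls, with Cebpb at 0.85, Cebpa at 0.63 and the receptor Fgfr2 at -0.59, and in knockouts 4 rose and 5 fell, with Ppard at 1.0, Fgfr2 at -0.94 and Lrig1, a marker of sebaceous stem cells, at -0.72. Pparg, the regulator of sebocyte differentiation, did not pass in either genotype. Of 19 sebocyte markers other than the members, several of which are also on the lists above, 4 rose in controls and 3 in knockouts. Over all genes 6.47% and 11.1% rose. The medians of the 19 markers were 0.30 and -0.03. Krt79 rose by 0.89 in controls (limma adjusted p = 0.00597) and did not pass in knockouts (0.32, limma adjusted p = 0.323). The mean of the 19 markers was 6.74 to 7.30 and 7.25 to 7.65 in mock-treated and treated controls, and 6.94 to 7.60 and 6.71 to 7.42 in knockouts. Of the 105 genes on the lists of lipid steps, regulators and sebocyte markers, 0 passed limma between genotypes in either treatment. At an unadjusted p under 0.05 there were 5 of 105 in mock-treated skin and 27 of 105 in treated skin, where 708 and 2218 of the 22180 genes reached it.

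**Figure D5:**
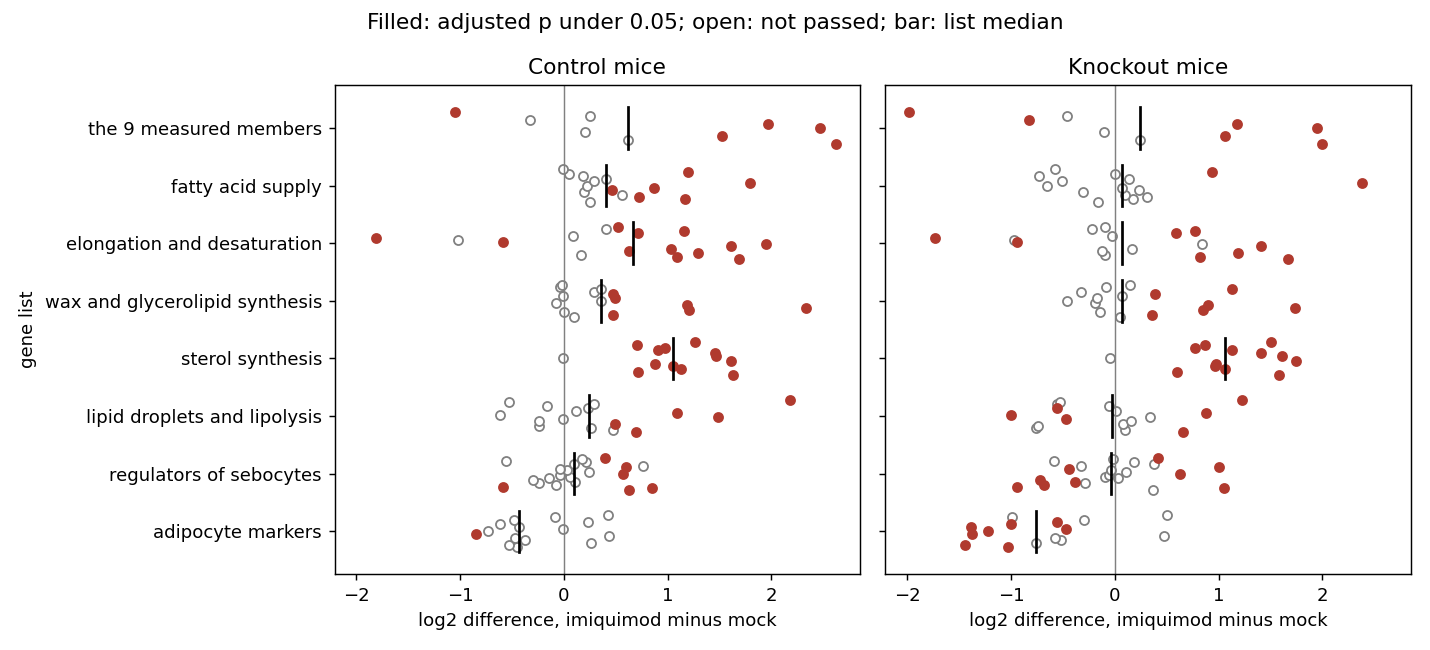
Log2 differences, imiquimod minus mock, of the 9 measured genes and of the genes on 7 further lists, in control (left) and knockout mice (right); filled points passed an adjusted p under 0.05 in limma and bars are list medians. Sterol synthesis has 12 of 13 filled points on the right side in both genotypes, and adipocyte markers have 8 of 15 filled points on the left in knockouts.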

How the data were processed

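The authors deposited 1 table of 41345 probe sets for 20 arrays. The deposited values were taken as log2 from their range (1.41 to 13.33); how the authors summarised and normalized the probe signals, and on which log base, is not stated in the sources used here. Detection calls were not used, which leaves folds of dim genes less certain. Total RNA (200 ng) was labelled with the WT PLUS protocol, per the labels.

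Of the probe sets, 23521 had 1 symbol in the platform table and 17824 were left out. The brightest probe set stood for a gene, which gave 22180 genes. Symbols were checked through Entrez identifiers against RefSeq (GRCm38.p6), which changed 0 of them.

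Differences were tested with limma 3.58.1 in R 4.3.3, with 1 mean per group, the 20 arrays fitted together (residual degrees of freedom 16) and Benjamini-Hochberg adjustment over all genes (two-sided, threshold 0.05). The median standard error over all genes was 0.11 between groups and 0.16 for the difference of responses. For the 9 members it was larger, at 0.22 to 0.37 and 0.31 to 0.53. Their SDs within groups lay between percentiles 93.4 and 98.8 of all genes. The number of arrays limits the precision. Relations between genes used 100000 permutations within groups. On simulated data for imiquimod in controls (22180 genes), 40.3% of changes of 0.5, 92.5% of changes of 1 and 98.5% of changes of 2 on the log2 scale were recovered. These rates are over all genes and were not computed for genes as variable as the members.

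The genes and lists were chosen with earlier results of these data known. Named were all members, per list and contrast the 2 largest rises and 2 largest falls past the threshold, the 3 genes most like each member, Zfp36, and per marker list the brightest gene and the one that changed most; part of these is printed. Other genes (Krt79, Muc1, Far1, Adipoq, Ucp1, Fasn, Pparg, Sqle, Cebpa, Lipe, the chromosome neighbours) were added after their values were seen. Alternatives were a quantile or median scaling, a trended robust prior, only the groups compared, the replicate number as a block, the mean of probe sets, the 30% dimmest genes left out, the hair or adipocyte list as a covariate, and arrays left out. Deviations of same-numbered arrays correlated from -0.71 to 0.52 over 30 pairs, with a median of -0.07 and 14 pairs above 0.1. The numbers were not taken as pairs in the main fit, and the fit with them as a block is given below.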

Additional observations from a re-analysis of the deposited data

Results flagged for a closer look

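In each of 36 combinations of gene and group, the highest and the lowest of 5 arrays were compared with the rest by Dixon's ratio of the gap to the range. A pair of arrays stood apart, both for Cidea. Chance alone flags about 1 in 20 combinations, so over 36 combinations it gives a number near the one found. In treated controls, replicate 5 read 8.12 while the others read 8.87 to 8.99; it is the array of that group with the highest hair genes. In mock-treated knockouts, replicate 3 read 7.97 while the others read 7.03 to 7.27; it is the array of that group with the lowest hair genes and, at 8.28, the highest mean of adipocyte markers. What sets them apart was not tested.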

How the results depend on the processing

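Of 1350 values of a gene, contrast and alternative, 1315 kept their direction and their side of the threshold. The number of members called with imiquimod in controls was 8 instead of 5 with the adipocyte list as a covariate. Under imiquimod, the number called between genotypes was 1 instead of 0 with the hair list as a covariate, and 0 to 1 with single arrays left out. With the hair list as a covariate the control response turned to -0.16 for Scd1 and -0.35 for Dgat2. With the adipocyte list as a covariate the knockout response turned to 0.15 for Scd1 and 0.67 for Dgat2, the genotype difference under imiquimod to 0.06 for Scd1 and 0.36 for Dgat2, and the difference of responses to 0.20 for Dgat2. Without the 4 arrays that stood apart in hair genes, the knockout response of Dgat2 was 0.19 and the genotype difference of Elovl3 in mock skin -0.04. With single arrays left out, Dgat2 ranged from -0.21 to 0.10 in its knockout response and from -0.16 to 0.02 between genotypes under imiquimod. In mock skin the genotype difference then ranged from -0.13 to 0.30 for Awat1, -0.16 to 0.46 for Elovl3, -0.14 to 0.33 for Scd3, -0.10 to 0.29 for Far2 and -0.09 to 0.24 for Cidea. None of these turned values was called in the main fit, and the causes were not tested. With the replicate number as a block, 5 members were called with imiquimod in controls and 6 in knockouts, as without it, and the block changed no call of a member; over all genes it gave 78 calls between genotypes under imiquimod against 121. In that comparison, calls over all genes were 17 with only the groups compared, 340 with the hair list as a covariate, 71 with the adipocyte list as a covariate and 54 without the 4 arrays. With single arrays left out they ranged from 45 (without control imiquimod replicate 2) to 174 (without knockout imiquimod replicate 5), and were 47 to 72 without control imiquimod replicates 1, 4 or 5 or knockout imiquimod replicates 1, 2 or 4. The 969 genes that fell with imiquimod in controls became 510, 632 and 641 without control imiquimod replicate 3, control mock replicate 3 and control imiquimod replicate 1. They became 1396 and 1365 without control mock replicate 5 and control imiquimod replicate 5. With the adipocyte list as a covariate they were 1666, and without the 4 arrays 1773. No background measure was used, which limits what can be said of Awat2, the dimmest member.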
